A study of Mus musculus with 11 samples.

Results

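The genes described here are 9 members of the NOD receptor and inflammasome pathways, measured in mononuclear phagocytes sorted from regions of the mouse epididymis. They were taken by symbol (Nod1, Nod2, Ripk2, Nlrp3, Aim2, Nlrc4, Pycard, Casp1 and Il18) from a deposited table of 37583 genes, and the rule that takes them uses no measured value. The symbols themselves were chosen with earlier results of these data known. All 9 were found and all 9 passed the filter on low counts, among 15116 genes tested. In GENCODE M21 (GRCm38) Nod1 lies on chromosome 6, Nod2 on 8, Ripk2 on 4, Nlrp3 on 11, Aim2 on 1, Nlrc4 on 17, Pycard on 7, and Casp1 and Il18 on 9.

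The study sequenced RNA from EGFP+ cells of 12-week-old CX3CR1 EGFP +/- mice, in which the CX3CR1 locus drives the fluorescent protein. The fractalkine receptor CX3CR1 is carried by many macrophages, monocytes and dendritic cells, so a library can hold a mixture of such cells. The initial segments (IS), where sperm enter, gave 4 libraries, with 3 from the caput and corpus together (caput/corpus) and 4 from the cauda, where sperm are stored. Cells passed through sorting in succession, and each library came from 4 epididymides. All mice carried the same reporter genotype, and no treatment is given in the labels. The labels do not say which libraries came from which mice, so p-values measure the spread between these libraries, which may be technical.

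NOD1 and NOD2 are receptors in the cytosol that sense fragments of bacterial peptidoglycan and act through the kinase RIPK2 to switch on NF-kB. Inflammasome sensors such as NLRP3, AIM2 and NLRC4 instead assemble, in many cases through the adaptor ASC (the product of Pycard), a platform that activates caspase-1. Caspase-1 then cleaves the precursors of interleukin-1 beta and interleukin-18 and the pore-forming protein gasdermin D, and mononuclear phagocytes are a main site of both pathways.

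Libraries held 16873180 to 31737132 reads on genes. The sample titles fall into a series Maj3 (IS replicates 1 and 2, caput/corpus replicate 1, cauda replicates 1 and 2) and a series Maj4 (the other 6 libraries), and this title series was a term in every regional test. Cauda replicate 1 stood apart, with 13434 genes having at least 1 read against 17053 to 18837 in the other libraries. Values without it are given for some of the genes below, and other calls and directions also turned on it. For 3 of 11 samples the deposited count file did not match the sample's named column in the table, and the named columns were used. What was filed for IS replicate 2 matched none of the columns. What was filed for caput/corpus replicate 1 held the reads of the IS replicate 2 column, and what was filed for cauda replicate 1 held those of the caput/corpus replicate 1 column. The match of count files to columns does not settle which region these 3 columns hold. Values for the 8 libraries whose sources match are therefore also given for Nod1, Pycard and Nlrc4. They are not given for single genes outside the 9, whose calls rest on the columns as named. With the columns as named, the summed level of 13 epididymal epithelium markers did not overlap between regions. It was 1273 to 2717 RPKM in IS, 218 to 420 RPKM in caput/corpus and 2.21 to 4.68 RPKM in cauda. Its genes did not move alike, with a log2 fold change of IS over cauda of 11.6 for Rnase10 and 3.82 for Epcam. The sum therefore does not measure the amount of epithelium in a region. The list was also chosen with earlier results of these data known. The 9 genes had from 172 reads (Nod2) to 6602 reads (Casp1) per library. Levels are deposited RPKM, reads per kilobase of gene scaled to library size, which correct for gene length.

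As a check of the labelled cell type, the summed level of 9 macrophage markers was 8966 to 14283 RPKM in IS, 6471 to 12357 RPKM in caput/corpus and 5765 to 8241 RPKM in cauda. None of those 9 markers was at 0 throughout. The sum over 9 monocyte markers ran the other way, at 242 to 483 RPKM in IS, 760 to 1254 RPKM in caput/corpus and 1353 to 1818 RPKM in cauda. The sum over 9 conventional dendritic cell markers was 365 to 530 RPKM in IS, 893 to 1216 RPKM in caput/corpus and 805 to 1503 RPKM in cauda. The sum over 8 mast cell markers was 26.1 to 99.2 RPKM in IS, 615 to 883 RPKM in caput/corpus and 879 to 3450 RPKM in cauda, and all 8 were lower in IS than in cauda. The sum over 8 neutrophil markers was 13.0 to 17.9 RPKM in IS, 47.7 to 77.1 RPKM in caput/corpus and 12.2 to 50.6 RPKM in cauda, with the defining genes S100a9 and Ly6g at 0 in every library and Mmp8 lower in IS than in cauda. The sum over 9 lymphocyte markers was 11.6 to 29.7 RPKM in IS, 23.1 to 30.2 RPKM in caput/corpus and 1.01 to 12.7 RPKM in cauda, with Cd4 and Klrb1c higher in IS than in cauda. Some of these sums separated regions and others overlapped between them. The sums were not tested, and neither was their part in any result below. In bulk samples such as these, fewer cells of a type and less RNA per cell cannot be told apart.

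Of the 9 genes, 2 differed between IS and cauda, Nod1 being higher and Pycard lower in IS. Between caput/corpus and cauda 1 differed, again Nod1, which was higher in caput/corpus. None of the 9 passed the test between IS and caput/corpus (edgeR's quasi-likelihood test, adjusted p under 0.05, Benjamini-Hochberg over all genes tested; 0 of 9 at an unadjusted p under 0.05, and 0 with DESeq2). Over all genes the same rule called 16.5% in IS over cauda, that is 7.4% higher and 9.06% lower in IS. It called 3.78% in IS over caput/corpus (0.794% higher and 2.98% lower) and 0.615% in caput/corpus over cauda (0.582% higher and 0.0331% lower). A count of 2 among 9 genes in IS over cauda is close to that background. The median log2 fold change over the 9 genes was 0.03 in IS over cauda, 0.05 in IS over caput/corpus and -0.06 in caput/corpus over cauda, against 0.05, 0.02 and 0.02 over all genes tested.

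The levels within a library kept a nearly fixed order. Casp1 was the highest of the 9 genes in 8 libraries and Pycard in the other 3, and these genes held the top places throughout. Il18 held rank 3 and Aim2 rank 4 in all 11 libraries. Nod1, Ripk2, Nlrp3 and Nlrc4 exchanged places below them, and Nod2 was the lowest in 10 libraries, Ripk2 being lowest in cauda replicate 1. In RPKM, the adaptor and the protease were therefore present at far higher levels than any sensor in every library.

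**Figure D1:**
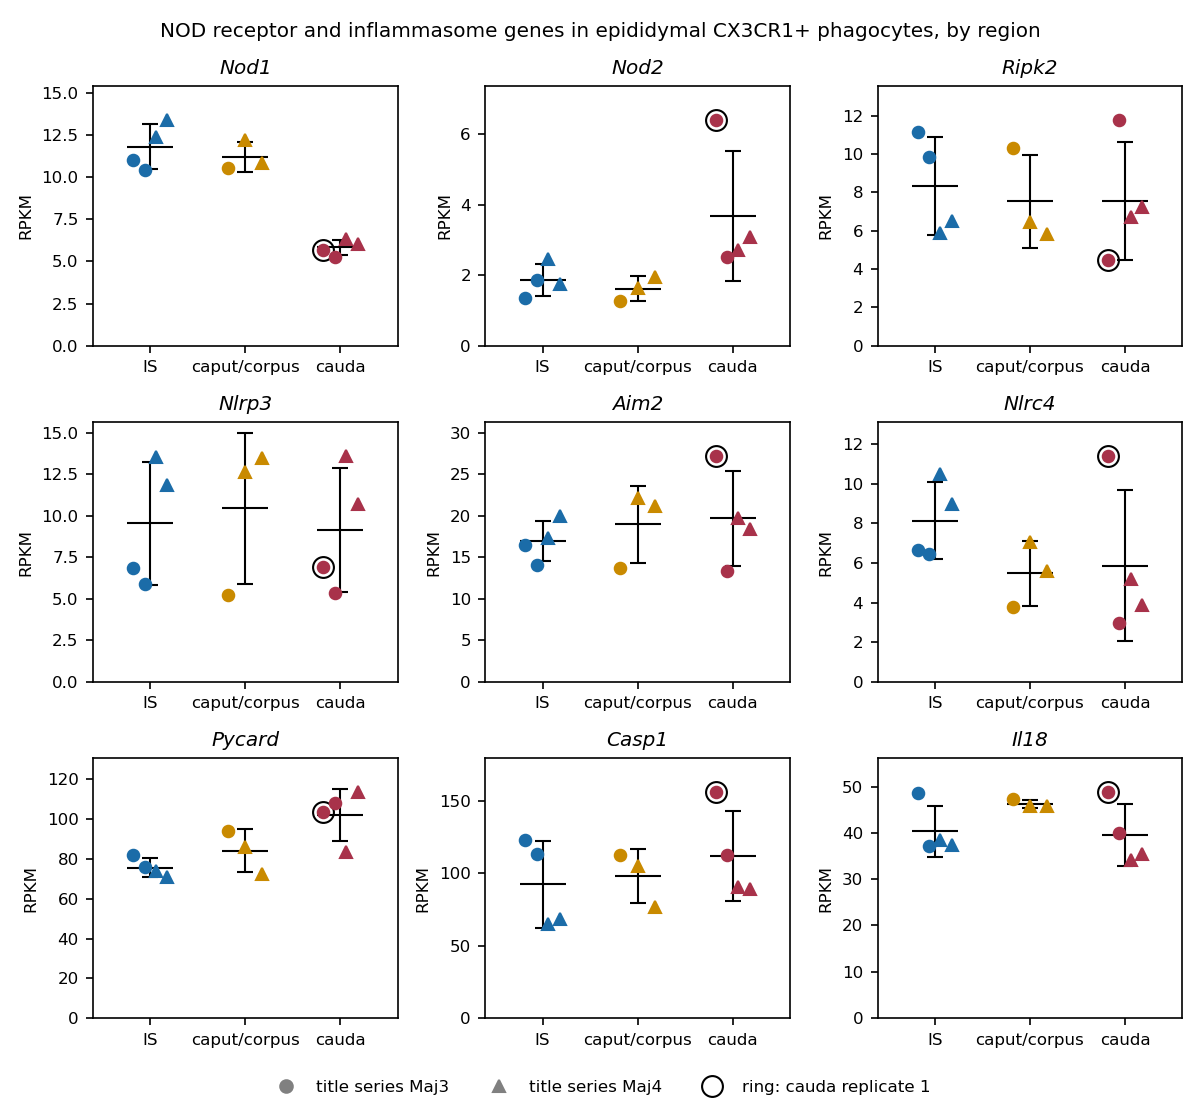
RPKM of each of the 9 genes (vertical axis, from 0) in every library of IS, caput/corpus and cauda; circles are Maj3 and triangles Maj4 libraries, the ring marks cauda replicate 1, and bars are the mean ± SD (n = 4, 3 and 4). Nod1 lies at 10.4 RPKM or above in every IS and caput/corpus library and at 6.32 RPKM or below in every cauda library, whereas Nlrp3 separates by title series.

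Nod1 encodes the receptor for peptidoglycan fragments that carry meso-diaminopimelic acid, a building block found mostly in Gram-negative bacteria. Its level was 11.1, 10.4, 12.4 and 13.4 RPKM in IS, 10.5, 12.2 and 10.9 RPKM in caput/corpus, with 5.68, 5.28, 6.32 and 6.06 RPKM in cauda (replicates in order). Every IS and caput/corpus library lay above every cauda library, and the libraries of IS and caput/corpus overlapped. The means were 11.8 ± 1.34 RPKM in IS (SD, n = 4), 11.2 ± 0.882 RPKM in caput/corpus (SD, n = 3) and 5.83 ± 0.455 RPKM in cauda (SD, n = 4), and the IS mean was 2.03 times the cauda mean. The log2 fold change was 1.01 ± 0.11 (SE) in IS over cauda (edgeR adjusted p = 0.000317) and 0.91 ± 0.12 in caput/corpus over cauda (edgeR adjusted p = 0.00842). Between IS and caput/corpus it was 0.10 with a 95% interval of -0.17 to 0.37.

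Within title series the Nod1 difference had like sizes. The log2 fold change of IS over cauda was 1.06 among Maj4 libraries and 0.97 among Maj3 libraries, and that of caput/corpus over cauda was 0.90 and 0.94 in the same order. Without cauda replicate 1 the IS over cauda value was 1.04 (edgeR adjusted p = 0.000165). The call of caput/corpus over cauda was lost without caput/corpus replicate 1 (adjusted p = 0.0918), whereas all 11 fits that left out 1 library kept the call of IS over cauda. In the libraries whose sources match the values were 1.07 in IS over cauda (edgeR adjusted p = 0.00133) and 0.91 in caput/corpus over cauda (edgeR adjusted p = 0.0642). Fitted on their own, the 5 Maj3 libraries gave no call of Nod1 in IS over cauda (adjusted p = 0.196), and neither did the counts as filed (log2 fold change 0.74, adjusted p = 0.119), but these fits called 0.186% and 0.0263% of all genes. The summed level of 13 markers of epididymal epithelium also differed by region, at 1273 to 2717 RPKM in IS, 218 to 420 RPKM in caput/corpus and 2.21 to 4.68 RPKM in cauda. Its genes did not all move alike. In IS over caput/corpus 8 were higher, Lcn5 was lower (log2 fold change -5.70, edgeR adjusted p = 0.00132), and Epcam, Cdh1, Krt8 and Krt18 were not called. In IS over cauda 12 were higher and none lower. The part of these genes in the Nod1 result was not tested.

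Because Nod1 was the gene with the clearest regional difference, the 250 bases before its start sites are shown, from RefSeq on GRCm38.p6. Both sites lie on the minus strand of chromosome 6, at chr6:54972613-54972862 and chr6:54971662-54971911, and neither window overlaps an annotated exon. The windows were searched on both strands for GAGGAAG (PU.1, a factor of the myeloid lineage) and TGANTCA (AP-1). They were also searched for GAAA followed after any 2 bases by GAAA (interferon response element) and for GGG followed after any 3 bases by TTCC (NF-kB). Matches are in capitals. None of these 4 motifs matched in either Nod1 window.
Nod1 upstream start: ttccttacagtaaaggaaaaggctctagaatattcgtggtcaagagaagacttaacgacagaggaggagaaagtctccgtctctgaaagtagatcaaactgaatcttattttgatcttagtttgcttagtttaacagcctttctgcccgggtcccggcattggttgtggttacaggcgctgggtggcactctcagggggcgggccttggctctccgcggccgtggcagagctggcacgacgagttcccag
Nod1 downstream start: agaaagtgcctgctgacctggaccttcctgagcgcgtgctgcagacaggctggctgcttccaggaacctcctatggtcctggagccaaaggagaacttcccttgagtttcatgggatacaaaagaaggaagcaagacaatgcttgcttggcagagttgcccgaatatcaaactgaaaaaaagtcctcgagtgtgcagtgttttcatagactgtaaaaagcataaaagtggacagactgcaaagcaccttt

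Over 32851 mouse promoter windows of the same length, 10.6% held the PU.1 letters, 6.75% AP-1, 2.98% the interferon element and 4.65% NF-kB. Promoter entries were found for 8 of the 9 genes, with 10 start sites in all. The PU.1 letters occurred in the windows of Nlrp3, Pycard and Aim2, and the other 3 motifs in none of the 10. A looser NF-kB pattern, GGG followed after any 5 bases by CC, was searched first. It matched in Nod1, Nod2, Nlrp3 and Casp1 but also in 45.8% of all promoters, and the stricter letters were chosen after those matches were seen. These matches describe letters and show nothing about binding.

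Nod2 encodes the receptor for muramyl dipeptide, which is shared by most bacterial cell walls. It was the lowest of the 9 genes in 10 of 11 libraries, at 1.36, 1.85, 2.46 and 1.74 RPKM in IS, 1.25, 1.65 and 1.95 RPKM in caput/corpus, with 6.40, 2.50, 2.72 and 3.07 RPKM in cauda. Every cauda library lay above every library of the other regions, with cauda replicate 1 far above the rest. The margin to IS was narrow, at 2.50 RPKM in cauda replicate 2 against 2.46 RPKM in IS replicate 3. The means were 1.85 ± 0.458 RPKM in IS (SD, n = 4), 1.61 ± 0.348 RPKM in caput/corpus (SD, n = 3) and 3.67 ± 1.83 RPKM in cauda (SD, n = 4). The difference did not pass the test: the log2 fold change was -1.01 ± 0.37 (SE) in IS over cauda (edgeR adjusted p = 0.0942) and -1.20 ± 0.42 in caput/corpus over cauda (edgeR adjusted p = 0.275). Without cauda replicate 1 the cauda mean was 2.76 ± 0.288 RPKM (SD, n = 3), the libraries still did not overlap, and the log2 fold change of IS over cauda was -0.53 ± 0.21 (edgeR adjusted p = 0.113), with -0.79 ± 0.23 in caput/corpus over cauda (edgeR adjusted p = 0.142). Between IS and caput/corpus the log2 fold change was 0.20 (95% interval -0.69 to 1.08). Of 26 alternatives, 1 called Nod2 in IS over cauda. Over all genes tested, 7.95% lay lower in IS than in cauda without overlap, and 3.04% lower in caput/corpus than in cauda.

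Set against cauda, Nod1 was higher in the other regions, while the Nod2 levels were lower there in every library without passing the test. The ratio of Nod1 to Nod2 RPKM was 8.16, 5.63, 5.03 and 7.71 in IS, 8.42, 7.41 and 5.59 in caput/corpus, with 0.887, 2.11, 2.32 and 1.97 in cauda. In cauda replicate 1 alone Nod2 exceeded Nod1. This ratio was formed after the levels were seen and is given as a description.

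Ripk2 encodes the kinase that both NOD receptors recruit. Its level was 11.2, 9.85, 5.90 and 6.49 RPKM in IS, 10.3, 6.44 and 5.83 RPKM in caput/corpus, with 4.47, 11.8, 6.74 and 7.23 RPKM in cauda. The regions overlapped fully, and all Maj3 libraries except cauda replicate 1 lay above all Maj4 libraries. By region the log2 fold change was 0.09 in IS over cauda (95% interval -0.50 to 0.68, edgeR adjusted p = 0.858), 0.05 in IS over caput/corpus and 0.04 in caput/corpus over cauda. Without cauda replicate 1 the sign of IS over cauda turned, to -0.17 ± 0.12 (edgeR adjusted p = 0.352). Neither was the Maj4 over Maj3 value called, at -0.55 ± 0.23 (SE, edgeR adjusted p = 0.124).

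**Figure D2:**
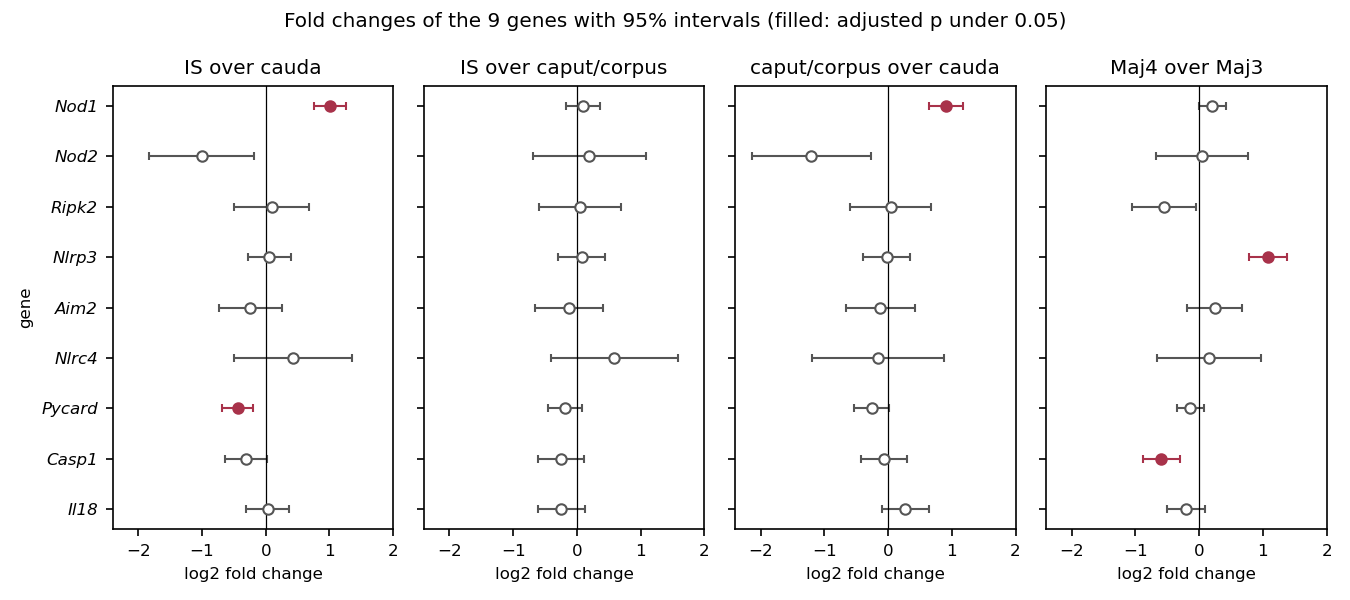
Log2 fold changes of the 9 genes (points) with 95% intervals (bars) in IS over cauda, IS over caput/corpus, caput/corpus over cauda and Maj4 over Maj3; filled points passed the test at an adjusted p under 0.05. Nod1 was called in both comparisons with cauda, Pycard in IS over cauda, and Nlrp3 and Casp1 between title series.

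None of the 3 inflammasome sensors passed the test between regions in the fit of all libraries. Nlrp3 encodes the sensor that responds to potassium efflux and membrane damage. It had 6.87, 5.92, 13.5 and 11.9 RPKM in IS, 5.20, 12.6 and 13.5 RPKM in caput/corpus, with 6.90, 5.35, 13.6 and 10.7 RPKM in cauda. Within each region the Maj4 libraries lay above the Maj3 libraries, and the regions overlapped. By region it had a log2 fold change of 0.05 in IS over cauda (95% interval -0.28 to 0.39, edgeR adjusted p = 0.850), 0.07 in IS over caput/corpus and -0.02 in caput/corpus over cauda.

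Between title series, a comparison added after the levels were seen, Nlrp3 averaged 12.6 ± 1.16 RPKM in Maj4 libraries (SD, n = 6) and 6.05 ± 0.810 RPKM in Maj3 libraries (SD, n = 5). The log2 fold change of Maj4 over Maj3 was 1.08 ± 0.13 (SE, edgeR adjusted p = 0.000585). Casp1 was the other of the 9 genes called between title series, lower in Maj4. Over all genes, 20.3% were called between title series, 10.6% higher and 9.73% lower in Maj4, so 2 of 9 is near the background. The labels do not say what the title series stand for. In the count files the share of reads not uniquely aligned was 12.5 to 14.7% in Maj4 and 27.6 to 35.8% in Maj3. The 35.8% is that of the file under IS replicate 2, which matched no column, and the other Maj3 files had 27.6 to 28.5%. The share on no gene was 18.6 to 24.8% in Maj4 and 7.75 to 11.3% in Maj3. No count file held the reads of the cauda replicate 1 column. Of 10 immediate early and dissociation genes, 7 were lower in Maj4 and none was higher. The part of these differences in the Nlrp3 and Casp1 results was not tested.

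The second Nlrp3 start site, at chr11:59542436-59542685 on the plus strand, is shown because it holds the PU.1 letters at 2 places. These begin 130 and 36 bases before the start, and the window overlaps no annotated exon.
Nlrp3 second start: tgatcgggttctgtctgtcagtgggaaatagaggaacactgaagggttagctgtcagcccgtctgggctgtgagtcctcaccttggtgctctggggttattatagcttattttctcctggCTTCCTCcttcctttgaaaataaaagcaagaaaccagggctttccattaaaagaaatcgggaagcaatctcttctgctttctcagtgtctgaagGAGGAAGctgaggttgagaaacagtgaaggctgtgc

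Aim2 encodes a sensor of DNA in the cytosol. Its level was 16.5, 14.0, 17.4 and 19.9 RPKM in IS, 13.7, 22.2 and 21.1 RPKM in caput/corpus, with 27.2, 13.4, 19.7 and 18.5 RPKM in cauda. The highest value was that of cauda replicate 1, and the regions overlapped. Its log2 fold change was -0.24 in IS over cauda (95% interval -0.73 to 0.25, edgeR adjusted p = 0.524), and without cauda replicate 1 it was 0.07 (edgeR adjusted p = 0.740). In IS over caput/corpus it was -0.12 and in caput/corpus over cauda also -0.12.

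Nlrc4 encodes the partner of the NAIP receptors for bacterial flagellin and secretion needle proteins, and its result turned on 1 library. It had 6.64, 6.47, 10.5 and 8.99 RPKM in IS, 3.80, 7.06 and 5.60 RPKM in caput/corpus, with 11.4, 2.99, 5.20 and 3.91 RPKM in cauda. Cauda replicate 1 held the highest value of all libraries, and the other 3 cauda libraries lay below every IS library. With all libraries the log2 fold change of IS over cauda was 0.43 ± 0.42 (SE, edgeR adjusted p = 0.551). Without cauda replicate 1 it was 1.12 ± 0.16 (edgeR adjusted p = 0.000903), with 8.15 ± 1.93 RPKM in IS (SD, n = 4) and 4.03 ± 1.11 RPKM in the other cauda libraries (SD, n = 3). In the libraries whose sources match, which leave out cauda replicate 1 too, it was 1.12 ± 0.19 (edgeR adjusted p = 0.00523). Leaving out that library also moved IS over caput/corpus, which was 0.59 ± 0.45 (edgeR adjusted p = 0.673) with it and 0.68 ± 0.16 (edgeR adjusted p = 0.0263) without it. All libraries share 1 estimate of the spread and the title series term, and what moved this result was not tested.

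Within title series, the Nlrc4 log2 fold change of IS over cauda was 1.09 among Maj4 libraries and -0.15 among Maj3 libraries, which hold cauda replicate 1, and the interaction test was not passed (unadjusted p = 0.144, edgeR adjusted p = 1.00 over all genes). For the 9 genes, as for all genes, no interaction of region and title series was called in any of the 3 comparisons. In cauda replicate 1 the dendritic cell marker sum was the highest of all libraries, at 1503 RPKM against 805 to 1457 RPKM in the other cauda libraries. The sum over 10 immediate early and dissociation genes was also highest there, at 8580 RPKM against 3084 to 7130 RPKM. The part of either in the levels of Nlrc4, Nod2, Aim2 and Casp1 in that library was not tested.

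**Figure D3:**
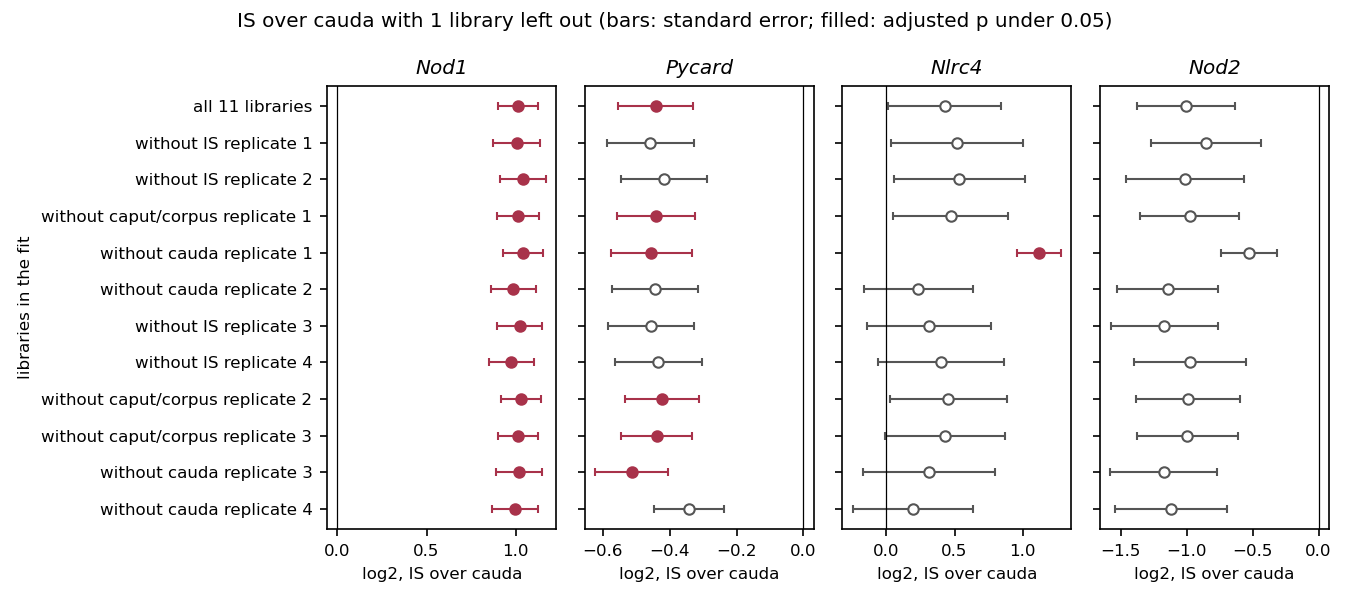
Log2 fold change of IS over cauda (horizontal axis) for Nod1, Pycard, Nlrc4 and Nod2 in the fit of all 11 libraries and with each library left out in turn; bars are ± 1 SE and filled points passed at an adjusted p under 0.05. Nod1 stays between 0.98 and 1.04 and is filled in each row, Pycard is filled in some, and Nlrc4 reaches 1.12 without cauda replicate 1 only.

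Pycard encodes ASC, the adaptor that links sensors to caspase-1. It had 81.9, 76.2, 73.9 and 70.8 RPKM in IS, 94.1, 86.2 and 72.5 RPKM in caput/corpus, with 104, 108, 83.6 and 114 RPKM in cauda. Every IS library lay below every cauda library, while the caput/corpus libraries overlapped with both. The means were 75.7 ± 4.67 RPKM in IS (SD, n = 4), 84.3 ± 10.9 RPKM in caput/corpus (SD, n = 3) and 102 ± 13.1 RPKM in cauda (SD, n = 4). Pycard was lower in IS than in cauda, with a log2 fold change of -0.44 ± 0.11 (SE, edgeR adjusted p = 0.0232). In IS over caput/corpus it was -0.18 (95% interval -0.45 to 0.09) and in caput/corpus over cauda -0.26 (95% interval -0.53 to 0.01), and neither was called.

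The call was kept in 14 of 26 alternatives. It was lost in 6 of the 11 fits that left out 1 library, namely without IS replicates 1, 2, 3 or 4 or cauda replicates 2 or 4, where the adjusted p reached 0.0700, but the fold change stayed between -0.51 and -0.34. In the libraries whose sources match it was -0.43 (edgeR adjusted p = 0.0817). Within title series it was -0.45 among Maj4 libraries and -0.43 among Maj3 libraries. An exon of Gm45205 on the opposite strand overlaps Pycard exons, and since the counting was not stranded, reads of the pair cannot be told apart.

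Pycard was 1 of the 2 genes called between IS and cauda, and its promoter window is shown for that reason. It lies on the minus strand at chr7:127993868-127994117, overlaps the Gm45205 exon and holds the PU.1 letters, read on the other strand, from 43 bases before the start.
Pycard start: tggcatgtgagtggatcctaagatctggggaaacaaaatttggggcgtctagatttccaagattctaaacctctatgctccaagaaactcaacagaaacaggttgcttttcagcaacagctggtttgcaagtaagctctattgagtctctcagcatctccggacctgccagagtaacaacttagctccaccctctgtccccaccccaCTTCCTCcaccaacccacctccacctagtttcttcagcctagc

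Casp1 encodes the inflammasome protease. It had 123, 113, 64.7 and 68.7 RPKM in IS, 112, 105 and 76.7 RPKM in caput/corpus, with 156, 113, 90.7 and 88.8 RPKM in cauda. Maj3 libraries lay above Maj4 libraries in every region, and the regions overlapped. Casp1 averaged 82.5 ± 15.2 RPKM in Maj4 libraries (SD, n = 6) and 123 ± 18.6 RPKM in Maj3 libraries (SD, n = 5), a log2 fold change of -0.60 ± 0.13 (SE, edgeR adjusted p = 0.00989). By region it was -0.31 in IS over cauda (95% interval -0.64 to 0.02, edgeR adjusted p = 0.201), -0.25 in IS over caput/corpus and -0.06 in caput/corpus over cauda. None of these was called.

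Il18 encodes the precursor of interleukin-18, a cytokine that caspase-1 matures. Its level was 48.6, 37.2, 38.3 and 37.3 RPKM in IS, 47.3, 45.8 and 45.8 RPKM in caput/corpus, with 48.8, 40.1, 34.0 and 35.4 RPKM in cauda. The caput/corpus libraries lay close together, and the range of IS and of cauda covered them. Its log2 fold change was 0.03 in IS over cauda (95% interval -0.31 to 0.37, edgeR adjusted p = 0.926), -0.24 in IS over caput/corpus and 0.27 in caput/corpus over cauda (edgeR adjusted p = 0.585).

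Of 7 receptors and antagonists of interleukin-1 and interleukin-18, 1 was higher, 1 lower and 5 not called in IS over cauda, and none was called in IS over caput/corpus (2 at an unadjusted p under 0.05). Il18 itself was not called. Il18bp, which encodes a secreted protein that binds and neutralises interleukin-18, averaged 42.1 ± 13.4 RPKM in IS (SD, n = 4), 19.4 ± 9.07 RPKM in caput/corpus (SD, n = 3) and 8.79 ± 1.53 RPKM in cauda (SD, n = 4). Its log2 fold change was 2.18 ± 0.25 (SE) in IS over cauda (edgeR adjusted p = 0.000363), against 1.04 ± 0.26 in IS over caput/corpus (edgeR adjusted p = 0.0593). The lowest IS library, at 28.3 RPKM, lay above the highest cauda library, at 10.2 RPKM. Il1rn, which encodes the antagonist of the interleukin-1 receptor, averaged 1.54 ± 0.524 RPKM in IS (SD, n = 4), 3.90 ± 1.11 RPKM in caput/corpus (SD, n = 3) and 3.55 ± 1.29 RPKM in cauda (SD, n = 4). It was lower in IS than in cauda by a log2 fold change of -1.22 ± 0.36 (SE, edgeR adjusted p = 0.0456), while IS over caput/corpus gave -1.49 ± 0.41 (edgeR adjusted p = 0.0791). Without cauda replicate 1, Il18bp and Il1rn were both called in IS over caput/corpus, at 1.04 (edgeR adjusted p = 0.0293) and -1.5 (edgeR adjusted p = 0.034).

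The other genes of the pathways were 69 in 7 lists by role, of which 65 were tested. In IS over cauda 8 were higher, 9 lower and 48 not called, where the same rule called 16.5% of all genes. The median log2 fold change was 0.06 against 0.05 over all genes. In IS over caput/corpus 2 were higher and 3 lower, where 3.78% of all genes were called, with a median of -0.03 against 0.02. Without cauda replicate 1 these stayed called. Nfkb1, Card9, Nlrc3 and Slc46a3 were among the genes then also called there (edgeR adjusted p = 0.0444, 0.04025, 0.0367 and 0.0254). None was called in caput/corpus over cauda by edgeR (7 at an unadjusted p under 0.05, 2 called with DESeq2), where 0.615% of all genes were called. All counts by list in this text are to be read beside these shares. Among the 65, the libraries of IS and cauda did not overlap for 6 genes that were higher in IS and 9 that were lower, or 23.1%, against 18.5% of all genes tested (10.6% higher and 7.95% lower). Between IS and caput/corpus the share without overlap was 21.5% against 14.3% of all genes, and between caput/corpus and cauda 9.23% against 9.57%.

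Among 5 transporters that bring peptidoglycan fragments to the cytosol, 1 was higher and 1 lower in IS than in cauda. This count turned on cauda replicate 1. Without it Slc15a2 was also called higher in IS (log2 fold change 1.67, edgeR adjusted p = 0.00398). Slc15a4 was then also called lower (-0.47, edgeR adjusted p = 0.0161), and Slc46a2 stayed uncalled (edgeR adjusted p = 0.135). Slc15a3, a peptide carrier of endosomes and lysosomes, averaged 20.2 ± 4.14 RPKM in IS (SD, n = 4), 11.8 ± 0.751 RPKM in caput/corpus (SD, n = 3) and 9.80 ± 2.70 RPKM in cauda (SD, n = 4). It was higher in IS than in cauda (log2 fold change 1.06, edgeR adjusted p = 0.00230) and than in caput/corpus (0.82, edgeR adjusted p = 0.0413). Slc46a3, another lysosomal carrier, was lower in IS than in cauda, by a log2 fold change of -0.55 (edgeR adjusted p = 0.0392). Slc46a2 was barely detected, at 0 to 0.0191 RPKM in IS, 0.238 to 0.342 RPKM in caput/corpus and 0.0204 to 0.0773 RPKM in cauda. It was called lower in IS than in caput/corpus (edgeR adjusted p = 0.0320), and no fold is given for so few reads.

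Of 17 genes that relay the NOD signal, 1 was higher and 2 were lower in IS than in cauda. Card9, an adaptor that works with NOD2 and with fungal receptors, had a log2 fold change of 0.61 (edgeR adjusted p = 0.0415). Its libraries overlapped, at 6.02 to 14.9 RPKM in IS and 3.35 to 10.4 RPKM in cauda. Nfkb1, which encodes the p105/p50 subunit of NF-kB, averaged 30.9 ± 4.42 RPKM in IS and 50.5 ± 9.11 RPKM in cauda (SD, n = 4 each), and its log2 fold change was -0.71 (edgeR adjusted p = 0.00914). Xiap, the ubiquitin ligase that modifies RIPK2, was not called, at 4.98 ± 1.13 RPKM in IS and 6.23 ± 1.22 RPKM in cauda (SD, n = 4 each, edgeR adjusted p = 0.280).

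Among 8 brakes of these signals, 7 were tested, 1 being higher and 2 lower in IS than in cauda. Nlrc3, which dampens several innate pathways, averaged 3.90 ± 1.02 RPKM in IS (SD, n = 4), 1.55 ± 0.787 RPKM in caput/corpus (SD, n = 3) and 0.445 ± 0.421 RPKM in cauda (SD, n = 4), where its lowest library was at 0. Its log2 fold change of IS over cauda was 3.66 ± 0.94 (SE, edgeR adjusted p = 0.0245), and without cauda replicate 1, the library at 0, it was 3.06 ± 0.45 (edgeR adjusted p = 0.00103). Tnfaip3, the ubiquitin editor A20, averaged 10.7 ± 3.70 RPKM in IS, 29.3 ± 4.50 RPKM in caput/corpus and 34.0 ± 11.0 RPKM in cauda (SD, n = 4, 3 and 4), and was lower in IS in both comparisons (edgeR adjusted p = 0.00254 against cauda and 0.0184 against caput/corpus). The 10 immediate early and dissociation genes were lower too, 9 of 10 in IS over cauda, and their part in the Nfkb1 and Tnfaip3 results was not tested.

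Other inflammasome sensors numbered 10, with 8 tested, 1 higher and 1 lower in IS than in cauda. Mefv, which encodes pyrin, a sensor of blocked RhoA signalling, averaged 3.57 ± 0.893 RPKM in IS (SD, n = 4), 14.2 ± 6.10 RPKM in caput/corpus (SD, n = 3) and 19.2 ± 3.53 RPKM in cauda (SD, n = 4). It was lower in IS than in cauda (log2 fold change -2.48, edgeR adjusted p = 0.000269) and than in caput/corpus (-1.94, edgeR adjusted p = 0.00540). Nlrp1b, a sensor cut by anthrax lethal factor, was higher in IS than in cauda (log2 fold change 0.54, edgeR adjusted p = 0.0440), a call lost without cauda replicate 1 (0.48, edgeR adjusted p = 0.0561). The flagellin and needle receptors Naip2, Naip5 and Naip6, near-identical copies whose reads are uncertain, were not called (edgeR adjusted p = 0.694, 0.647 and 0.691), and Naip1 was too low to test.

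Of 13 triggers and regulators, 12 were tested, 2 being higher and 1 lower in IS than in cauda. P2rx7, the ATP-gated channel that triggers NLRP3, averaged 45.4 ± 12.6 RPKM in IS (SD, n = 4), 29.1 ± 2.41 RPKM in caput/corpus (SD, n = 3) and 26.1 ± 6.91 RPKM in cauda (SD, n = 4). It was higher in IS than in cauda (log2 fold change 0.80, edgeR adjusted p = 0.00288) and than in caput/corpus (0.68, edgeR adjusted p = 0.0313). Pstpip1, which encodes a partner of pyrin, was lower in IS than in cauda, as Mefv was, with 13.0 ± 2.64 RPKM in IS and 23.7 ± 0.967 RPKM in cauda (SD, n = 4 each, log2 fold change -0.87, edgeR adjusted p = 0.00443).

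Among 9 effectors, 1 was higher and 1 lower in IS than in cauda. Il1a, which encodes interleukin-1 alpha, averaged 68.6 ± 18.8 RPKM in IS (SD, n = 4), 39.7 ± 36.7 RPKM in caput/corpus (SD, n = 3) and 19.7 ± 7.48 RPKM in cauda (SD, n = 4), with a log2 fold change of IS over cauda of 1.74 ± 0.40 (SE, edgeR adjusted p = 0.0153). Gsdme, a gasdermin opened by caspase-3, was lower, by a log2 fold change of -1.16 (edgeR adjusted p = 0.00174). The substrates and the relative of caspase-1 were not called. Il1b had 237 ± 59.6 RPKM in IS and 285 ± 111 RPKM in cauda (SD, n = 4 each, edgeR adjusted p = 0.551), and Gsdmd had 98.8 ± 3.43 RPKM in IS and 96.2 ± 15.0 RPKM in cauda (SD, n = 4 each, edgeR adjusted p = 0.883). Casp4, the receptor protease for cytosolic lipopolysaccharide, had 8.40 ± 1.33 RPKM in IS and 7.38 ± 0.766 RPKM in cauda (SD, n = 4 each, edgeR adjusted p = 0.545).

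**Figure D4:**
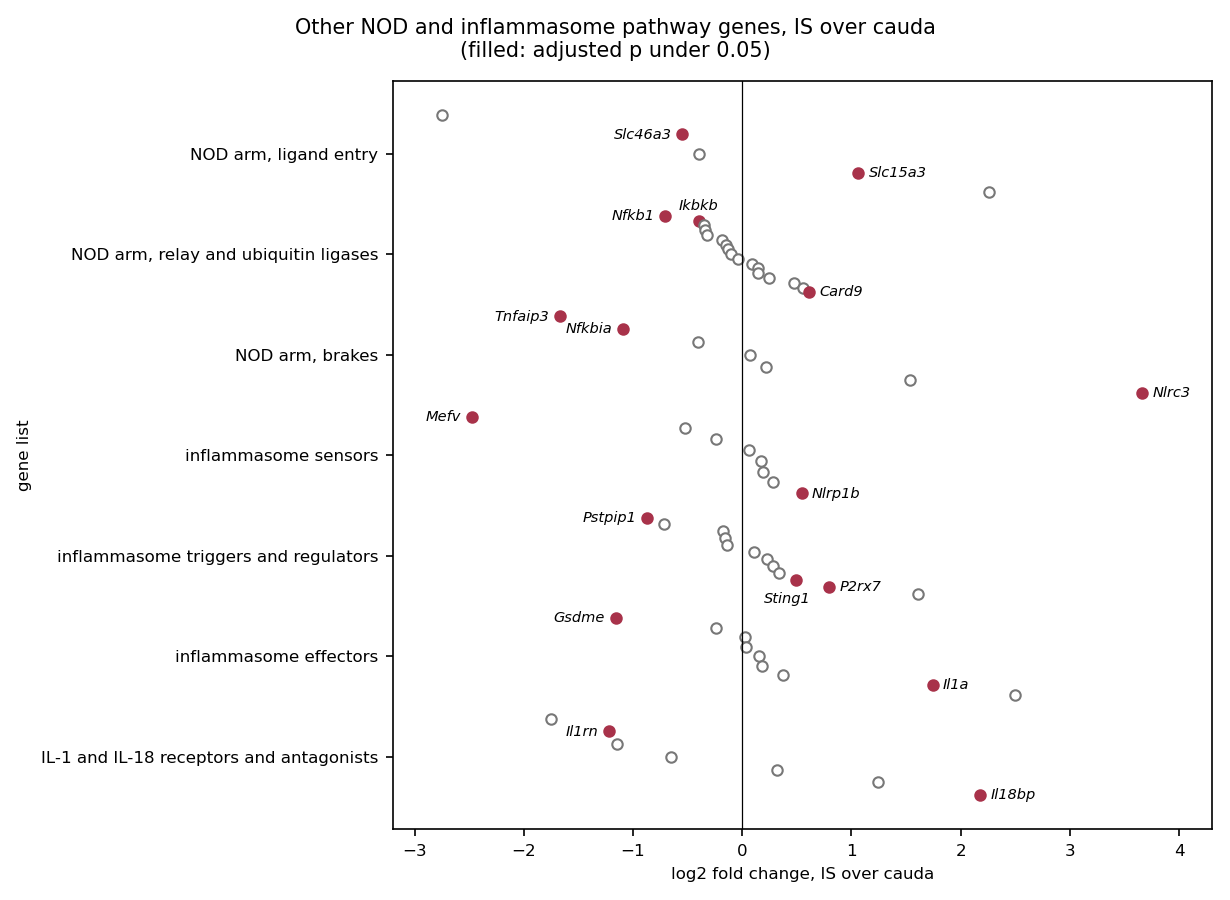
Log2 fold change of IS over cauda (horizontal axis) for the 65 tested pathway genes other than the 9, grouped by role; filled and named points passed at an adjusted p under 0.05. The 17 called genes fall on both sides of 0 within each role, from Mefv at -2.48 to Nlrc3 at 3.66.

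The genes whose levels followed Nod1 most closely were sought over all tested genes by Spearman's rho on log2 CPM, over all 11 libraries. They were Runx1 (rho = 0.955), which encodes a transcription factor of blood cells, Slc45a4 (rho = 0.955) and the potassium channel gene Kcnk6 (rho = 0.945). Runx1 averaged 40.7 RPKM in IS, 30.8 RPKM in caput/corpus and 23.0 RPKM in cauda. For Pycard the closest were Fkbp1b, Hmga1 and Dbi, each at rho = 0.936. These values describe 11 libraries that share regions and title series, and the most similar of 15116 genes are high by choice.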

How the data were processed

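RNA from sorted cells was amplified with the Clontech SMARTER kit v4 and sequenced, per the labels' protocols. STAR, HTSeq and edgeR and the build mm9 are named in the submitters' processing notes, without versions. The deposited RPKM table and the deposited count files are the authors' values; the count files are not stranded. In 3 of 11 samples the count file differed from the sample's named RPKM column. Reads were therefore recovered from the named columns, all values being whole within 0.001, and the RPKM scale equalled each library's TMM effective size. No column lacked a sample.

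These reads were fitted with edgeR 4.0.16 (R 4.3.3) by the quasi-likelihood test, with TMM, filterByExpr by region, and region and title series as terms, over 15116 genes. SE is the log2 fold change over the root of F. DESeq2 1.42.0 and limma 3.58.1 (on log2 values of RPKM plus 1 or 0.1) were alternatives. Only the edgeR fit was tried on simulated data, which had a fixed spread, no title series effect and changes in IS alone. That trial does not cover a library that stands apart. Comparing title series and the interaction were added after the data were seen. Members and lists were chosen with earlier results of these data known. Within each list the called gene with the largest change per direction and comparison is named, and Il1b, Gsdmd, Casp4, Il18bp, Il1rn, Xiap, Tnfaip3 and the Naip genes in any case. Outside this rule, Slc15a2 and Slc15a4 are named for calls without cauda replicate 1. For 5 genes an older symbol in the table was matched by identifier or synonym. The GENCODE M21 annotation of GRCm38 served for overlaps only.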

Additional observations from a re-analysis of the deposited data

Results flagged for a closer look

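Among 18 groups of 4 libraries (9 genes in IS and in cauda), 2 had 1 library set apart from the rest by Dixon's criterion at 95%; chance gives about 1 in 20. Nod2 in cauda replicate 1 was 6.40 RPKM, against 2.50 to 3.07 RPKM in the other cauda libraries. Il18 in IS replicate 1 was 48.6 RPKM, against 37.2 to 38.3 RPKM in the other IS libraries.

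The count file listed under IS replicate 2 equalled no column of the table and was used in no comparison except the counts as filed. In reads per kilobase, scaled to its own total of reads with no further normalization, it held 8.78 for Nod1, 1.36 for Nod2 and 12.4 for Ripk2. It held 14.5 for Nlrp3, 20.5 for Aim2 and 3.46 for Nlrc4. For Pycard it held 50.8, for Casp1 91.9 and for Il18 31.9. The region of this file's cells was not assigned.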

How the results depend on the processing

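Of the 9 genes, 2 were called in IS over cauda; leaving out 1 library gave 1 to 3, the highest without cauda replicate 1. The count was 1 with no title series or with only the 2 regions compared, 4 with voom quality weights and 0 in the Maj3 libraries alone or with the counts as filed. Of all genes these settings called 9.8%, 14.1%, 29.1%, 0.186% and 0.0263%, in that order, and 20.8% without cauda replicate 1. With Maj4 alone, or with the libraries whose sources matched, it was 2, Nod1 and Nlrc4 (adjusted p = 0.0404 and 0.00523 for Nlrc4). In IS over caput/corpus the count was 0, with 0 to 1 on leaving out 1 library and 1 with only the 2 regions or voom. In caput/corpus over cauda it was 1, with 0 to 1 on leaving out 1 library, and 0 with only the 2 regions, in Maj4 or Maj3 alone, with the counts as filed or the matched libraries. Nod1 and Pycard did not change sign under any of 26 alternatives in either comparison with cauda. Of 24 results not called, 15 changed sign in some alternative (64 of 624 values) and 8 values were called. A sign change of a result called in neither fit was not counted as a reversal, a choice made after these were seen. Where calls were lost, the cause was not tested, except that several alternatives hold fewer libraries.

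Of the other pathway genes, 17 were called in IS over cauda, with 11 to 21 on leaving out 1 library. The count was 7 with no title series and 7 in Maj4 alone, 0 in Maj3 alone and with the counts as filed, and 28 with voom. In IS over caput/corpus 5 were called, with 1 to 12 on leaving out 1 library. The count was 10 with DESeq2 or voom, 2 with no title series, 0 in Maj3 alone or with the counts as filed (which called 0 of all genes), and 8 with only the 2 regions, the matched libraries or limma on log2(RPKM + 1). In caput/corpus over cauda 0 were called, with 2 by DESeq2 or voom and 1 by limma with no filter.

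The replicate block (title series and label number) gave 2, 0 and 1 calls of the 9 genes in the 3 comparisons, in the order above, and 15, 1 and 0 of the other pathway genes. After region and title series were fitted, same-numbered libraries correlated at -0.26 to 0.27, with 2 of 10 pairs over 0.1. Of 11 libraries, 1 correlated best with its own number. With so few libraries in each region and series, these values cannot show whether same-numbered libraries share mice. The lowest count of any of the 9 genes was 172 reads (Nod2).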
